A study of Mus musculus with 10 samples.

Results

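Arg1, Mgl2 and Chi3l4 are genes of the alternatively activated state of mouse macrophages. They were chosen by name from the authors' deposited tables of genes that differ between genotypes, and each is represented by 1 probeset (10368343 for Arg1, 10377774 for Mgl2 and 10501026 for Chi3l4). They are 3 of the 251 probesets those tables name, among 35556 on the array. The deposited table for macrophages lists Mgl2 and Chi3l4, and the one for tumor cells lists Arg1. The difference between genotypes in the cell type whose table lists a gene is therefore what chose it, and is given below as a description with no test.

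Each array measured RNA of cells sorted on day 10 from tumors that grew after 100000 PyMT-BO1-GFP-Luc cells had been placed in the mammary fat pad. This mouse mammary tumor line carries green fluorescent protein and luciferase. The groups are CD206hi tumor-associated macrophages (TAMs) of b3KOM mice (3 arrays), in which integrin beta3 is deleted in macrophage lineage cells, CD206hi TAMs of wild-type (WT) mice (3 arrays), tumor cells from b3KOM hosts (2 arrays) and tumor cells from WT hosts (2 arrays). All groups share the injected line, the site and the day, and the deletion is carried by the host, not by the injected line. The Cre driver, the age of the mice and how many mice stand behind an array are not stated by the labels, so p-values reflect how far these samples scatter, and that scatter may be technical.

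Alternative activation is the state that interleukin-4 and interleukin-13 induce in macrophages, acting through the transcription factor STAT6. It is marked in mice by arginase 1, by galactose-binding C-type lectins and by chitinase-like proteins, and macrophages of mouse mammary tumors often carry parts of this programme. CD206, the mannose receptor used for the sort, belongs to it. No named probeset stands for its gene Mrc1, which is not analysed here. The sorted TAMs carried all 12 named genes of a 19-gene macrophage marker list above the median of the value table on each of the 6 arrays. So did the tumor cells on each of their 4 arrays, and it is the level that differed, with a mean log2 value over the 12 markers of 11.95 to 12.01 on TAM arrays and 6.96 to 7.71 on tumor cell arrays. No gene of the epithelial, neutrophil, dendritic cell, T and NK cell, B cell, fibroblast or endothelial marker lists is named in the deposited tables, so those cells could not be looked for. Of the eosinophil list 1 of 6 genes is named, Ear1, which lay below that median on all 10 arrays.

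Values are on the log2 scale after RMA, 1 value per probeset and array. The median of the whole table, 4.19, serves here as a working line under which values are treated as near background. It is not a measured background, since no control probes or detection calls were used. Of the 3 genes, Arg1 was above it on all 10 arrays, Mgl2 on the 6 TAM arrays only, and Chi3l4 on none. Arg1 and Mgl2 passed the filter for testing (above the line on at least 2 arrays, 20246 probesets) and Chi3l4 did not. Mgl2 passed through its TAM arrays alone.

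**Figure D1:**
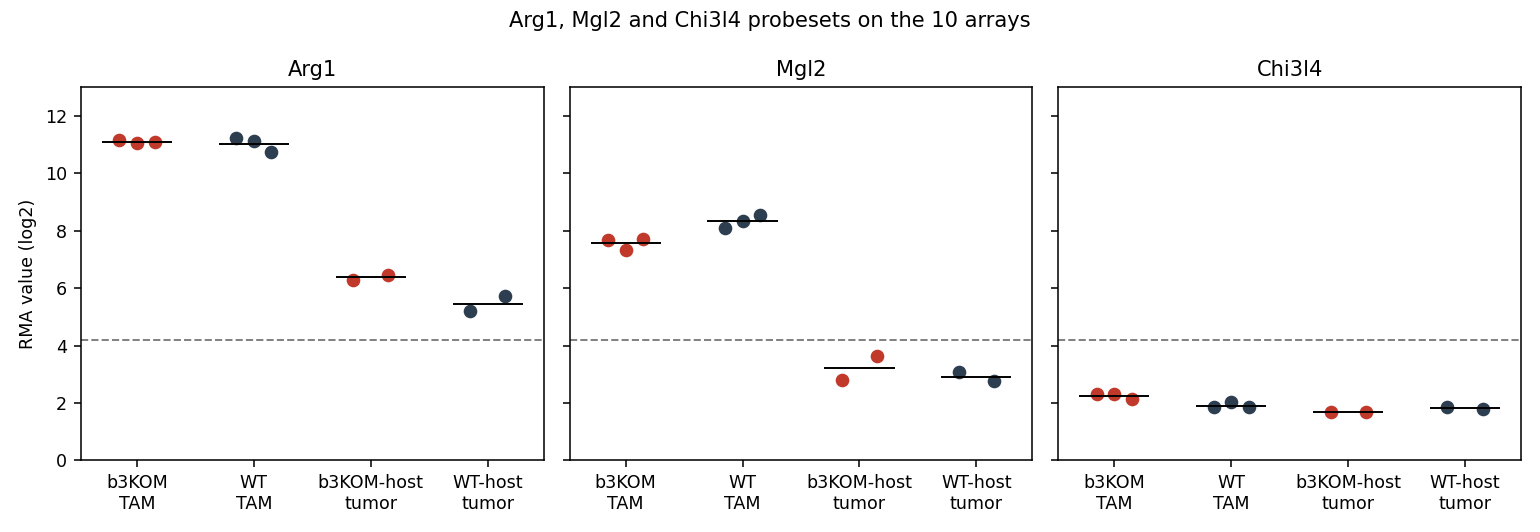
Log2 RMA value (vertical axis) of the Arg1, Mgl2 and Chi3l4 probesets on every array, by group (points are arrays, short lines group means, the dashed line is the table median of 4.19). Arg1 lies far higher in TAMs than in tumor cells, where it is higher in b3KOM hosts, Mgl2 is lower in b3KOM TAMs than in WT TAMs, and Chi3l4 stays under the dashed line throughout.

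Arg1 encodes the enzyme that splits arginine into ornithine and urea. It measured 11.16, 11.05 and 11.11 in b3KOM TAMs, against 11.22, 11.11 and 10.75 in WT TAMs. The genotypes overlapped, and the lowest of the 6 arrays was WT replicate 3. On tumor cell arrays Arg1 measured 6.30 and 6.45 in cells from b3KOM hosts, against 5.20 and 5.71 in cells from WT hosts. Both b3KOM-host arrays were higher than both WT-host arrays, and the WT-host arrays differed by 0.51 among themselves.

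Mgl2 encodes a lectin of macrophages and dendritic cells that binds galactose and N-acetylgalactosamine, also called CD301b. It measured 7.69, 7.32 and 7.70 in b3KOM TAMs, against 8.10, 8.35 and 8.56 in WT TAMs. Every b3KOM array was lower than every WT array, with the lowest value in b3KOM replicate 2 and the highest in WT replicate 3. On tumor cell arrays it measured 2.78 and 3.65 for b3KOM hosts and 3.09 and 2.75 for WT hosts. All 4 of these values lay under the table median and the hosts overlapped.

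Chi3l4, now named Chil4 in RefSeq and also known as Ym2, encodes a secreted chitinase-like lectin without known chitinase activity. It measured 2.32, 2.31 and 2.14 in b3KOM TAMs, against 1.84, 2.03 and 1.84 in WT TAMs. In tumor cells it measured 1.67 and 1.69 for b3KOM hosts and 1.86 and 1.78 for WT hosts. The b3KOM arrays were the higher ones in TAMs and the lower ones in tumor cells, but the highest of the 10 values was still 1.87 log2 units under the table median. By this working line the probeset gave no sign of Chi3l4 RNA above background in CD206hi TAMs of either genotype, and its differences have no interpretable size. Whether the RNA is absent was not tested.

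Chi3l4 has a close copy, Chil3 (Ym1), itself a standard marker of alternative activation. The pair are neighbours on chromosome 3, with 0 protein-coding genes starting between them in RefSeq (GRCm38.p6). Chil3 is not among the named probesets, and whether the Chi3l4 probeset also reads Chil3 was not tested. Mgl2 likewise lies next to its relative Clec10a (Mgl1, or CD301a) on chromosome 11, which is not named either. The RefSeq sequences of the 250 bases before each start are given to let the copies be compared, and because STAT6 is the factor of this programme. Capitals mark a match to TTCNNNGAA. The first is Chil4, chr3:106219480-106219729 on the minus strand, the next Chil3, chr3:106167565-106167814 on the minus strand, and the last Mgl2, chr11:70130107-70130356 on the plus strand, all in GRCm38.p6.
Chil4: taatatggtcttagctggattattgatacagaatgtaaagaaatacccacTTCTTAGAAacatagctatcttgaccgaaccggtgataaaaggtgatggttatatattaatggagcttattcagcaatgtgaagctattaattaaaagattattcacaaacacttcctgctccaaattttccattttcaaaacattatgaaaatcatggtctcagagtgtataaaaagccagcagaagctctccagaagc
Chil3: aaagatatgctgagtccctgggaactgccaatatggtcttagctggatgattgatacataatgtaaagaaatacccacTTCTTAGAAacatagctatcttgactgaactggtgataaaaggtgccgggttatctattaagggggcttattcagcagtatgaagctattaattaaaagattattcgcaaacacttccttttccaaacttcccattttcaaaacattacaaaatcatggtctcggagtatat
Mgl2: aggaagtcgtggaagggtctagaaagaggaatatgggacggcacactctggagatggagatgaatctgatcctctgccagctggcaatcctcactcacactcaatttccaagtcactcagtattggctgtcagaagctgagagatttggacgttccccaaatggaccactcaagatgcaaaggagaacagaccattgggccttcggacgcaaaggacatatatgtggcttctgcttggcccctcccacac
Where the Chil4 and Chil3 sequences align, 201 of 221 bases were identical (91.0%). Both spacings of the STAT palindrome were searched for, TTC and GAA with 4 bases between them, the form that STAT6 prefers, and TTCNNNGAA, with 3 between them, which other STAT factors share. Each reads the same on both strands. Chil4 and Chil3 held the same single match to the second form, TTCTTAGAA, whose first base lies 200 and 172 bases before the annotated start, and none to the first. Mgl2 held neither. Of 32851 promoters, 5.85% held the first form and 7.02% the second in the same 250 bases, so a match is common and is a description of letters only.

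The comparison of cell types was not used to choose the genes, and it was fitted with limma over all 20246 probesets. Arg1 averaged 11.11 ± 0.06 in b3KOM TAMs and 11.03 ± 0.25 in WT TAMs (SD, n = 3 each), against 6.38 ± 0.11 in tumor cells from b3KOM hosts and 5.45 ± 0.36 in those from WT hosts (SD, n = 2 each). The difference of TAMs minus tumor cells was 5.15 ± 0.13 (SE), which is 35.6-fold, at a limma adjusted p of 4.87e-09. It ranked 96 among the 20246 tested probesets by size in favour of TAMs. Within b3KOM the difference was 4.73 ± 0.18 and within WT 5.58 ± 0.18.

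Mgl2 averaged 7.57 ± 0.22 in b3KOM TAMs and 8.34 ± 0.23 in WT TAMs (SD, n = 3 each), against 3.22 ± 0.61 and 2.92 ± 0.24 in tumor cells from b3KOM and WT hosts (SD, n = 2 each). The difference of TAMs minus tumor cells was 4.89 ± 0.18 (SE). Mgl2 entered the fit only through the TAM arrays where it is high, so this is a description with no test. Because the tumor cell values lie under the table median, the size is not exact. With all values under the median raised to it, the difference was 3.77. Calls were common in the comparison of cell types: 66.1% of tested probesets passed (13383), with 24.9% of the tested ones higher in TAMs and 41.2% lower (5050 and 8333 probesets). After cyclic loess scaling, 6735 were called higher and 6307 lower. The median difference over all tested probesets was -0.14 before and 0.03 after that scaling, far from the values of Arg1 and Mgl2.

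For Arg1 the TAM arrays are a measure that the choice did not use, and their difference between genotypes did not pass the test. The log2 difference of b3KOM minus WT was 0.076 ± 0.16 (SE), with a 95% interval from -0.29 to 0.45 and a limma adjusted p of 0.986. The interval leaves room for a moderate change in either direction. Without WT replicate 3 the difference was -0.062. In this comparison limma called 0.0148% of probesets (3 of 20246), and Arg1 was not among them.

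For Mgl2 the corresponding unused measure is the tumor cell comparison, where limma called 0.00988% of probesets (2 of 20246). All 4 Mgl2 values there lie under the table median, so these arrays cannot test it, and no fold or p is given. Its plain difference of b3KOM minus WT hosts was 0.30. Without b3KOM-host replicate 2 the difference was -0.13. Chi3l4 was not tested, and its tumor cell difference was -0.14 between values near background.

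The differences that brought the genes into the deposited tables follow as a description. Mgl2 differed by -0.77 ± 0.23 (SE) between b3KOM and WT TAMs, 0.586 times the WT level. Of all tested probesets, 4.11% had every b3KOM TAM array below every WT one, as Mgl2 did. Arg1 differed by 0.92 ± 0.20 between tumor cells from b3KOM and WT hosts, 1.90-fold, and 17.2% of tested probesets likewise had both b3KOM-host arrays above both WT-host arrays. Chi3l4 differed by 0.35 in TAMs. In the authors' deposited tables, which give WT over b3KOM, the log2 fold changes were 0.70 for Mgl2, -0.95 for Arg1 and -0.44 for Chi3l4, each of the same direction as the array values once the sign is turned.

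Chi3l4 and Arg1 sit near the end of the deposited tables, which stop at p-values of 0.00989 (TAMs) and 0.00996 (tumor cells). In the authors' deposited table for TAMs, the p-value was 0.00343 for Mgl2 (rank 24 of 122 rows by p) and 0.00940 for Chi3l4 (rank 114 of 122). In the authors' deposited table for tumor cells it was 0.00908 for Arg1 (rank 118 of 130). The t and p of these rows in the authors' deposited tables correspond to 6.29 degrees of freedom in TAMs and 4.20 in tumor cells. The authors' deposited mean for Mgl2 was 8.22, against 7.95 over the 6 TAM arrays in the value table. For Chi3l4 it was 2.19 against 2.08, and for Arg1, over the tumor cell arrays, 5.94 against 5.91. Whether the deposited fold changes and p-values rest on other normalized values was not tested.

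On tumor cell arrays Arg1 and the named macrophage markers were all higher in b3KOM hosts, the difference for which the authors listed them. All 12 named macrophage markers had both b3KOM-host arrays above both WT-host arrays, by 0.45 (Csf1r, the macrophage colony-stimulating factor receptor) to 0.88 (Tyrobp, the DAP12 adaptor), with a median log2 difference of 0.65, against a median of 7.5e-06 over all tested probesets. Of the 12, 0 passed in limma. All were listed by the authors for this same difference, as Arg1 was. The count and the likeness to Arg1 are therefore not independent of the choice. Of all tested probesets, 17.2% had both b3KOM-host arrays above both WT-host arrays. The summed linear signal of the 12 was 3381 and 3725 on the b3KOM-host arrays, against 2294 and 2212 on the WT-host arrays. On the TAM arrays that sum was 53078 to 54889 for b3KOM and 53228 to 54461 for WT.

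**Figure D2:**
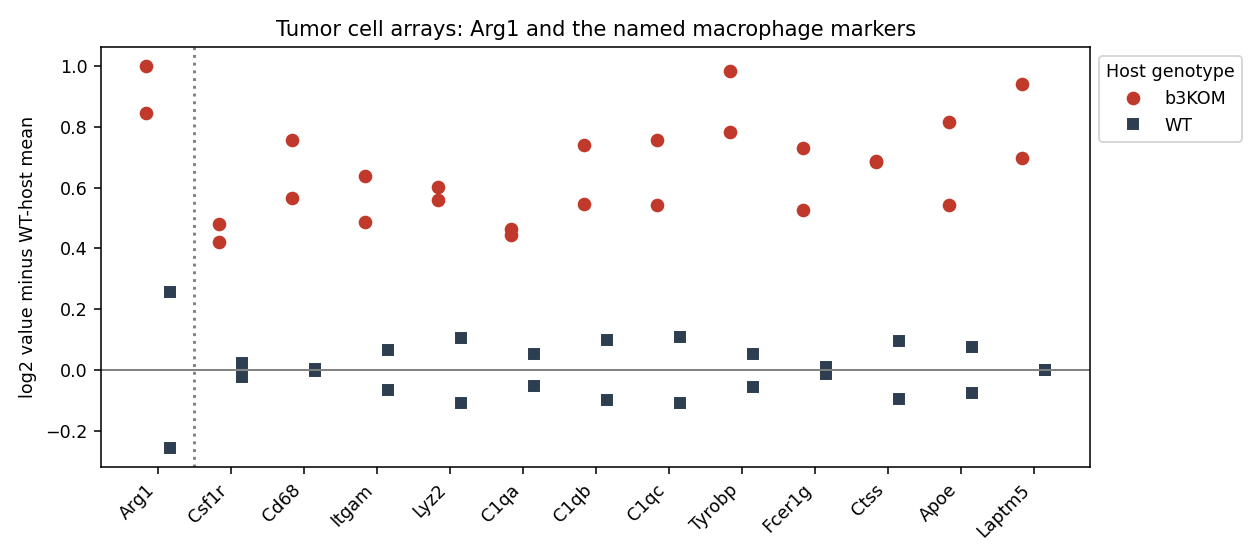
Log2 value minus the WT-host mean of the same gene (vertical axis) on the 4 tumor cell arrays, for Arg1 and the 12 named macrophage markers (circles b3KOM hosts, squares WT hosts). The b3KOM-host arrays lie above the WT-host arrays for every gene shown, and Arg1 has the widest gap between its WT-host arrays. All genes shown were listed by the authors for this host difference.

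Set against the mean log2 value of these 12 markers on the same array, Arg1 stood at -1.27 and -1.26 on the b3KOM-host arrays, against -1.84 and -1.25 on the WT-host arrays. So relative to the markers the hosts no longer separated, though narrowly, at -1.25 in WT-host replicate 2 against -1.26. WT-host replicate 1 was the lowest, and 2 arrays cannot tell which is nearer the WT-host level. The difference of b3KOM minus WT hosts was 0.28 on this relative scale, against 0.92 for Arg1 itself and 0.64 for the marker mean. The markers were listed by the authors for higher levels in b3KOM hosts, so setting Arg1 against them lowers its difference by the choice. The Arg1 signal of tumor cells was 3.77% of that of TAMs in b3KOM and 2.10% in WT. The same share for the 12 markers ran from 2.29% to 11.2% in b3KOM (median 4.54%) and from 1.61% to 7.82% in WT (median 3.06%). Arg1 and the markers were chosen on the tumor cell arrays, so how these shares differ between hosts is likewise set in part by the choice. In bulk sorted cells, fewer cells of a type and less RNA per cell cannot be told apart. The part of macrophage RNA in the Arg1 difference was not tested.

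**Figure D3:**
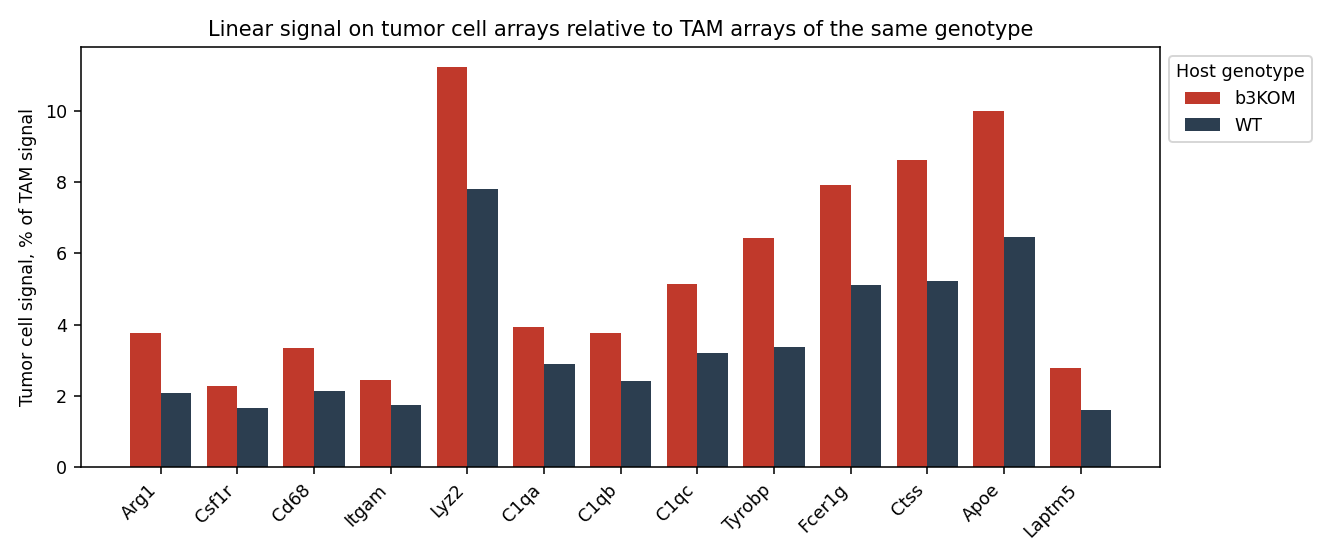
Linear signal on tumor cell arrays as a percent of the signal on TAM arrays of the same genotype (vertical axis), from group means, for Arg1 and the 12 named macrophage markers (left bar b3KOM, right bar WT). Arg1, at 3.77% in b3KOM and 2.10% in WT, lies within the range of the markers in both genotypes.

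Among probesets whose TAM value exceeded the tumor cell value by over 5 log2 units, a class to which Arg1 belongs, the median tumor cell difference between hosts was 0.38 (127 probesets). In the wider class of over 4 log2 units the median was 0.24 (337 probesets). Arg1, at 0.92, was listed for this difference, so its place above those medians was set by the choice.

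Of the 41 names in a wider alternative activation list, 4 are named by the deposited tables: the 3 genes above and F13a1, the A chain of coagulation factor XIII. F13a1 averaged 10.56 ± 0.12 in b3KOM TAMs and 10.40 ± 0.22 in WT TAMs (SD, n = 3 each). Its log2 difference was 0.16 ± 0.12 (SE) at a limma adjusted p of 0.882. Like that of Arg1, its b3KOM mean was not below its WT mean, whereas that of Mgl2 was. Mgl2 was listed for its TAM difference, unlike Arg1 and F13a1, so this contrast was set by the choice. In tumor cells, where the authors listed it, F13a1 differed by 0.50. Arg1 is the 1 named gene of the 17 in the arginine metabolism list, so its partners and its competitor Nos2 were not analysed here. Of the 15 hypoxia response genes 1 is named, Hmox1, the haem-degrading enzyme. It differed by 0.20 ± 0.17 (SE) between TAM genotypes at a limma adjusted p of 0.899, and by 1.37 in tumor cells, where it was listed.

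Of 25 classical activation genes 6 are named, all through the tumor cell table. In TAMs 0 of 6 passed in limma, and 0 had an unadjusted p under 0.05. Their differences of b3KOM minus WT were negative in 6 of 6, with a median of -0.62, against 0.00575 over all tested probesets. Il1b, the inflammatory cytokine interleukin 1 beta, differed by -0.16 ± 0.11 (SE), and Gbp2, an interferon-induced GTPase, by -0.97 ± 0.43, at limma adjusted p of 0.856 and 0.749. Gbp2 measured 8.04, 7.50 and 9.37 in b3KOM TAMs, against 9.04, 8.98 and 9.81 in WT TAMs. Its lowest and highest arrays, b3KOM replicate 2 and WT replicate 3, were also those of Mgl2. The genotypes overlapped for Gbp2 and not for Mgl2, which was listed for its TAM difference.

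**Figure D4:**
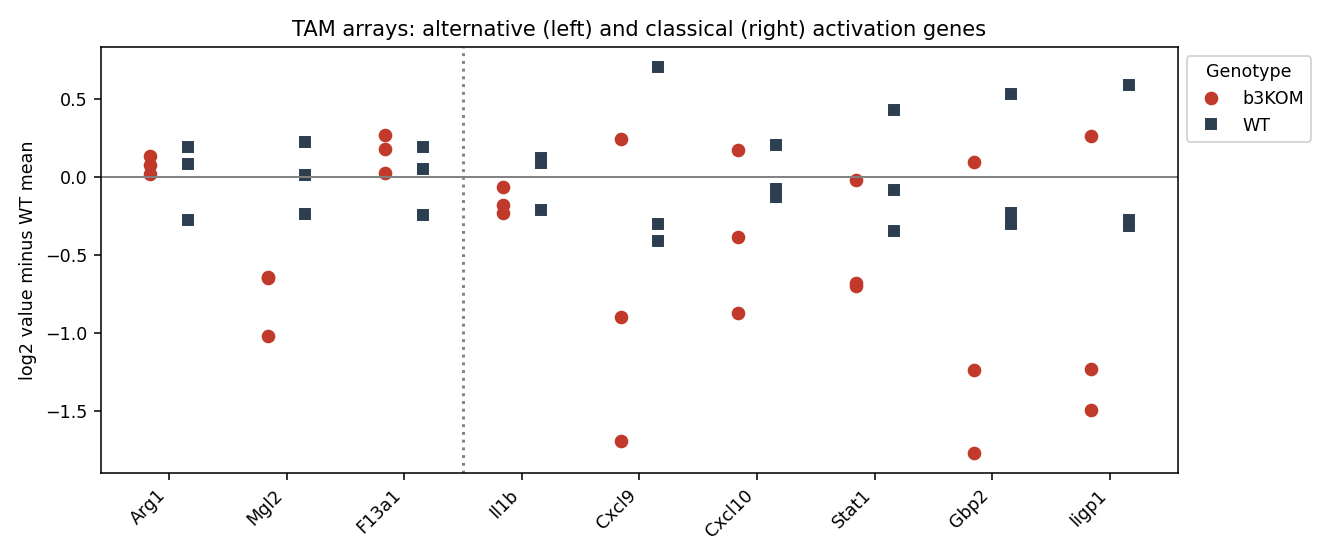
Log2 value minus the WT mean of the same gene (vertical axis) on the 6 TAM arrays, for the alternative activation genes that passed the filter (left of the dotted line, Chi3l4 left out) and classical activation genes (right of it), with circles for b3KOM and squares for WT. Of the 9 genes drawn, Mgl2 is the one whose genotypes do not overlap. It was listed for this TAM difference, and the other genes drawn were listed through tumor cells. The interferon-linked genes Cxcl9, Gbp2 and Iigp1 spread widely within each genotype.

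The named genes with the pattern most like a member were found by the root-mean-square difference of log2 values over the 10 arrays, each gene centred on its own mean, among the 148 other named probesets that passed the filter. For Arg1 they were C3ar1, a complement receptor, at 0.19, Cd68, a lysosomal macrophage protein, at 0.20, Clec4n, which encodes dectin-2, at 0.20, H2-DMa, a class II peptide loading chain, at 0.21, and C1qb, a complement chain, at 0.22. The median over the 148 was 2.34. For Mgl2 the nearest genes were further away, with Rgs1 at 0.37, Fcgr3 at 0.38 and the 3 C1q chains C1qc, C1qa and C1qb at 0.39, against a median of 2.23. All of these were listed through the tumor cell table, and the gap between the cell types is part of each pattern. Around Chi3l4 the nearest were Zfp658 at 0.18 and Fxyd1 at 0.18, then Lpp, L3mbtl and Gcnt7 at 0.22 to 0.24, while Chi3l4 itself varied little, at background.

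Over the 6 TAM arrays, with each genotype's mean taken out, the named genes that varied most closely with Mgl2 were Trex1, a DNA exonuclease, Ccl8, a monocyte-attracting chemokine, and Zfp12, with Pearson's r of 0.96, 0.96 and 0.94. For Arg1 they were Hspa1l, Olfr566 and Gja1, with r of 0.93, 0.88 and 0.83, and for Chi3l4 Fcer1g, C1qb and Tceal1, with r of 0.99, 0.97 and 0.97. These are the highest of 148 or 149 values over 6 arrays that share amplification and normalization, and they are given as a description. Mean TAM values of Hspa1l (3.93 in b3KOM, 3.39 in WT) and Zfp12 (4.10 and 3.69) lay under the table median. So did that of Olfr566 in WT TAMs (3.75). Chi3l4 lay under it on all 6 arrays, and the SDs of Fcer1g and C1qb within a TAM genotype were 0.04 to 0.05. For such pairs r describes variation near background or of small size.

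In order of level, Arg1 was highest in b3KOM TAMs, then WT TAMs, then tumor cells from b3KOM hosts and last those from WT hosts. The TAM genotypes differed by less than their spread. Mgl2 ran from WT TAMs over b3KOM TAMs to the tumor cells, whose hosts differed by less than their spread.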

How the data were processed

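RNA of sorted cells (50 ng per sample, per the labels' protocols) was amplified and hybridised to Affymetrix arrays. The deposited values are on the log2 scale, and the submitters' processing notes name RMA and Affymetrix Expression Console for them, with no version. The array model is not stated there. Array medians ran from 4.13 to 4.22. Per the file headers, the authors' deposited tables give a log fold change, WT over b3KOM (read as log2), a mean, a statistic t (a score) and an unadjusted p-value. No table naming all probesets was used, so names come from those tables.

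Groups follow the titles. A model with 1 mean per group was fitted with limma 3.58.1 in R 4.3.3 (6 residual and 2.35 prior degrees of freedom) to 20246 probesets above the table median on at least 2 arrays. P-values were adjusted by Benjamini-Hochberg over all of them, with a call at an adjusted p under 0.05. As a check that known differences were recovered on average, the fit was run on simulated data. Its power and false calls at these group sizes are not reported. Precision is limited by the number of arrays, 3 or 2 per group. The genes, the lists and the tests were chosen with earlier results of these data known. Besides members and list genes, up to 5 named genes of most similar pattern and 3 of highest within-genotype correlation are named for each, without predicted genes, clone names and small RNAs. Alternatives were other filters, fits within a cell type, an intensity trend with robust fitting, array weights, other scalings, the deposited tables and leaving out each array.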

Additional observations from a re-analysis of the deposited data

Results flagged for a closer look

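Chi3l4 was the 1 gene of the 3 whose arrays separated by genotype in opposite directions in the cell types. It was higher on every b3KOM array than on every WT array in TAMs (2.14 to 2.32 in b3KOM, 1.84 to 2.03 in WT) and lower on every one in tumor cells (1.67 and 1.69 for b3KOM hosts, 1.86 and 1.78 for WT hosts). Of the probesets that passed the filter, 4.68% separated upward in TAMs and 16.6% downward in tumor cells. The genotype difference in TAMs minus that in tumor cells was 0.49 on the log2 scale, of which 0.35 is the TAM difference for which the authors listed the gene. The difference was not tested, since Chi3l4 did not pass the filter, and all 10 values lie under the table median. Groups of 2 or 3 arrays are too small for a search for single outlying arrays.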

How the results depend on the processing

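No paired analysis was possible because the titles carry no replicate number shared between groups. The difference of TAMs minus tumor cells stayed called for Arg1 under all alternatives run, from 5.12 to 5.41, and from 5.02 to 5.28 with 1 array left out. That of Mgl2, a description, was 3.77 to 5.10, and 4.67 to 5.10 with 1 array left out. The lowest Mgl2 value is that with the floor at the table median, which was added after the data were seen. Chi3l4, not tested in the chosen fit, had a cell type difference of 0.33, at levels near background, and 0.30 to 0.36 with 1 array left out. With no filter its limma adjusted p was 0.00688, in a fit that called 16617 of 35556 probesets. The Chi3l4 difference was 0.57 within b3KOM and 0.085 within WT, and the TAM arrays that chose the gene are part of it. The Arg1 difference between TAM genotypes reached -0.062 without WT replicate 3, in a range of -0.062 to 0.17, and Mgl2 in tumor cells reached -0.13 without b3KOM-host replicate 2, in a range of -0.13 to 0.73. Arg1 was not called between TAM genotypes under any alternative run. Chi3l4 in tumor cells ran from -0.18 to -0.10. The differences that chose the genes kept their direction, with ranges of -0.89 to -0.65 for Mgl2, 0.32 to 0.41 for Chi3l4 and 0.67 to 1.18 for Arg1 with 1 array left out. Where an arm is left with 1 array, it is assumed to vary like the other groups.

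The counts of calls moved more. Between TAM genotypes limma called 3 probesets, against 9 with the stricter filter, 9 with trend and robust fitting and 0 on TAM arrays alone, and 0 to 5 with 1 array left out. Between hosts in tumor cells it called 2, against 0 with no filter, 8 with the stricter filter, 0 on tumor cell arrays alone, 17 with trend and robust fitting and 30 with array weights, and 0 to 2 with 1 array left out. For the difference between those comparisons it called 0, with 736 at an unadjusted p under 0.05, and 11 with trend and robust fitting. The cause was not tested. Signal over background limits Chi3l4 everywhere and Mgl2 in tumor cells.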
